A study of Mus musculus with 16 samples.

Results

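The comparison set mouse retinas treated with VEGF Trap (n = 3 arrays) against retinas that received hFc, the control protein (n = 4). Both groups were taken by their treatment labels, and together they made up 7 of the 16 arrays of the series. All mice were C57Bl6, and the tissue on every array was whole retina collected 24 h after treatment. The hFc pups were injected into the vitreous at 8 days of age with 4 µg of hFc. The injection protocol in the labels also names VEGF-A (1 µg, n = 5) and Dll4-Fc (4 µg, n = 4), given at the same age, but it does not name VEGF Trap, so the dose of VEGF Trap and the age of those pups were not known here. No genotype other than the strain is given. The labels do not say whether the arrays of a group came from separate animals, so p-values measure the spread between these samples, which may be technical. Hybridisations set each sample, in Cy3, against a common pool of RNA of the experiment, in Cy5, and every value below is a log2 ratio of sample over that pool unless it is called a difference. Such ratios show how a gene differs between arrays and not how abundant it is beside another gene.

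VEGF-A is secreted by astrocytes and neurons of the growing retina where oxygen is low, and it acts through the receptors Flt1 and Kdr on endothelial cells to draw out tip cells and to keep young vessels alive. VEGF Trap is a soluble decoy that joins ligand-binding domains of the VEGF receptors to an Fc part and keeps VEGF from its receptors. Low oxygen stabilises the HIF transcription factors, which switch on glycolytic enzymes, glucose and lactate transporters and Vegfa itself.

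In these retinas genes of the low-oxygen response were higher after VEGF Trap and genes of endothelial cells were lower. Of 22812 genes tested by limma with Benjamini-Hochberg adjustment, 1786 passed an adjusted p of 0.05 (7.83%). Of these, 609 rose (2.67% of genes tested) and 1177 fell (5.16%). Most differences were small: 1424 of the called genes differed by under 1.5-fold, and only 26 rose and 21 fell by at least 2-fold. Over all genes tested the median log2 difference was −0.025. On 28.1% of the genes the arrays of the 2 groups did not overlap, with VEGF Trap higher on 12.4% and lower on 15.7%. Of the 1786 called genes 1748 had no overlap, so for a called gene this adds little to the call. Members of a gene list that are named beyond the 4 with the smallest p were chosen after their values were seen.

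Slide was inferred from a code in the name of each array's raw data, since the labels do not name it. By that code all hFc arrays lay on slide 1, while VEGF Trap 1 and 2 lay on slide 3 and VEGF Trap 3 on slide 4. Slide and treatment therefore cannot be told apart in the comparison with hFc, and the comparison with VEGF-A, which shared slides 3 and 4, gives the values within slides. Between 84.9 and 85.1% of spots were well above background on the hFc arrays and between 88.2 and 91% on the VEGF Trap arrays. The hFc slide carried a band of 159 rows in which many spots were marked as outliers and left out. Genes whose probe lay in that band had a median difference of 0.077, with 302 rises and 87 falls, against −0.062 with 307 rises and 1090 falls for genes outside it. Leaving out the band gave 366 rises and 1231 falls. Lens genes, which mark tissue next to the retina, were high on VEGF Trap 2, VEGF Trap 3 and hFc 4 and low on the other arrays. Without these 3 arrays VEGF Trap 1 alone is set against hFc 1 to 3, so only effect sizes are given for that setting. Without VEGF Trap 1, hFc 2 or hFc 3 the counts of called genes were 350, 900 and 941. Without VEGF Trap 2 the rises numbered 386. Markers of the retina itself were well above background on all 7 arrays for 11 of 12 rod genes and 13 of 13 Müller glia genes.

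The hypoxia and glycolysis genes rose. Of 26 measured genes 20 rose and 0 fell by limma, where 2.67% of all genes rose and 5.16% fell. At an unadjusted p under 0.05, 23 were higher and 0 lower. The 6 that limma did not call had differences between 0.11 and 0.68. The median difference was 0.65, against −0.025 over all genes, and on 22 of the 26 genes every VEGF Trap array lay above every hFc array (12.4% of all genes). The promoters of 4 of them, those with the smallest p, are shown because the letters that HIF binds can be read in them. Each is the 250 bases before the start of the gene from the RefSeq table of GRCm38.p6, written 5′ to 3′ along the strand of the gene, with every ACGTG or GCGTG, on either strand, in capitals.
Slc16a3, chr11:120948817-120949066 (+ strand): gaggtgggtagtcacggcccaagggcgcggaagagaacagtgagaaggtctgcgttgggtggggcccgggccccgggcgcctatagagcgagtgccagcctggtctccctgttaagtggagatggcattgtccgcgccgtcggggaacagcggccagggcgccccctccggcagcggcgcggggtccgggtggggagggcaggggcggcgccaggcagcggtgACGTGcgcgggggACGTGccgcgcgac
Bnip3, chr7:138909507-138909756 (- strand): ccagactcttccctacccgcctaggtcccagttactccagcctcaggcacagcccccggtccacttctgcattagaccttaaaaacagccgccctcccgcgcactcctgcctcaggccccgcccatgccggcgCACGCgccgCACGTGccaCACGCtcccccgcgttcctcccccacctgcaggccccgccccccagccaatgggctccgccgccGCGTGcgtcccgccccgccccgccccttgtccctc
Pfkp, chr13:6648772-6649021 (- strand): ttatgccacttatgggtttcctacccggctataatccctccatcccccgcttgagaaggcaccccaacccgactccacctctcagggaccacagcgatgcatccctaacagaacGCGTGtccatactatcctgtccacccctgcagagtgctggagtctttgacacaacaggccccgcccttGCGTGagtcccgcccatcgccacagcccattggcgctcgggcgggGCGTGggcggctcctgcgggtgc
Pdk1, chr2:71872974-71873223 (+ strand): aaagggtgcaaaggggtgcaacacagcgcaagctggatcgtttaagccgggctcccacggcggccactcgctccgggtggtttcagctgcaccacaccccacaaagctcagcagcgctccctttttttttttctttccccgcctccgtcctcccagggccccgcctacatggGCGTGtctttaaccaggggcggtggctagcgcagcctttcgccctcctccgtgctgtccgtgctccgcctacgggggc
The count of matches was 2 for Slc16a3, 5 for Bnip3, 3 for Pfkp and 1 for Pdk1, where the palindrome CACGTG of Bnip3 counts on both strands. Of the hypoxia genes tested, 24 had a promoter in the table and 20 held a match, while 38.6% of all 27025 promoters did. A match describes these letters only.

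Slc16a3, which exports lactate from cells, stood at 0.79, 0.82 and 0.89 on VEGF Trap 1 to 3 and at −0.16, −0.13, −0.34 and −0.27 on hFc 1 to 4. The groups were far apart, and Slc16a3 rose 2.08-fold (log2 difference 1.06, standard error 0.13, adjusted p = 0.000231). The mitophagy receptor Bnip3 stood at 0.81, 0.62 and 0.86 after VEGF Trap and at −0.39, −0.07, −0.2 and −0.23 after hFc. Its lowest VEGF Trap array was above its highest hFc array, and it rose 1.98-fold (0.99, 0.11, adjusted p = 0.000168), with its probe in the band of rows. Pfkp, a phosphofructokinase of glycolysis, stood at 0.78, 0.71 and 0.98 after VEGF Trap and at −0.04, −0.28, −0.18 and −0.09 after hFc. All 3 treated arrays lay above all controls, and Pfkp rose 1.96-fold (0.97, 0.1, adjusted p = 0.000106), with 0.75 and 1.45 from its remaining probes. Pdk1, the kinase that holds pyruvate back from mitochondria, stood at 0.67, 0.72 and 0.85 after VEGF Trap and at −0.26, −0.15, −0.18 and −0.08 after hFc. Again the groups did not overlap, and Pdk1 rose 1.89-fold (0.92, 0.12, adjusted p = 0.00061).

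**Figure D1:**
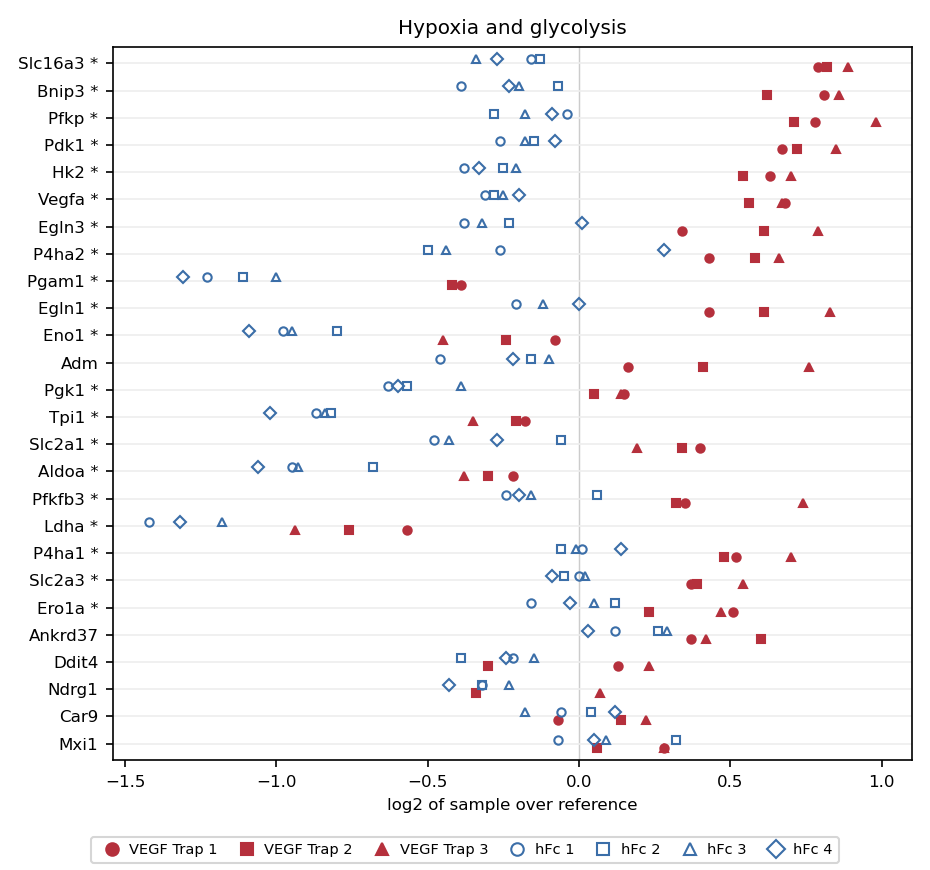
The log2 ratio of sample over reference (horizontal axis) for the 26 measured hypoxia and glycolysis genes, ordered by difference, with filled red symbols for the 3 VEGF Trap arrays, open blue symbols for the 4 hFc arrays and a star for genes past an adjusted p of 0.05. Red symbols lie right of the blue ones without overlap on 22 genes, and Slc16a3 at the top spans 0.79 to 0.89 against −0.34 to −0.13.

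The rest of this list covered most steps of glucose use. Glucose enters through Slc2a1 and Slc2a3, which rose by 0.62 and 0.47 on the log2 scale, and is trapped by the hexokinase Hk2, which rose by 0.91. The glycolytic enzymes Aldoa, Tpi1, Pgk1, Pgam1 and Eno1 rose by 0.6, 0.64, 0.66, 0.76 and 0.7, and the lactate dehydrogenase Ldha rose by 0.55 with 3 hFc arrays measured. Pfkfb3, which makes the activator of phosphofructokinase, rose by 0.6. The oxygen sensors Egln1 and Egln3, themselves HIF targets, rose by 0.73 and 0.81, the collagen prolyl hydroxylases P4ha1 and P4ha2 by 0.55 and 0.78, and Ero1a, an oxidase of protein folding, by 0.41. Those that did not pass were Adm at 0.68 (adjusted p = 0.109), Ddit4 at 0.27, Ankrd37 at 0.28, Car9 at 0.12, Ndrg1 at 0.19 and Mxi1 at 0.11. For Car9, the carbonic anhydrase often used as a HIF marker, the arrays of the groups overlapped. The calls of Ldha, Pgam1, Ero1a, P4ha1 and Slc2a1 were lost without VEGF Trap 1 (adjusted p of 0.0564, 0.0899, 0.139, 0.0756 and 0.158). That of Ero1a was also lost without VEGF Trap 3 or hFc 1 (0.0747 and 0.0595), that of P4ha1 without VEGF Trap 3, hFc 2 or hFc 3 (0.05 to 0.0695), and that of Slc2a1 without any 1 array but hFc 2 (0.0546 to 0.158). Leaving out the band of rows, 11 of 15 genes rose, with a median of 0.62. With only VEGF Trap 3 of slide 4 against hFc the median was 0.68. Without the 3 arrays high in lens genes, which leaves VEGF Trap 1 alone in its group, the median was 0.67. The mean of the list was 0.36 on VEGF Trap 1, whose lens genes were low, beside 0.32 and 0.45 on the other VEGF Trap arrays.

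Vegfa, the ligand that VEGF Trap binds, was among the rises. It stood at 0.68, 0.56 and 0.67 on VEGF Trap 1 to 3 and at −0.31, −0.28, −0.25 and −0.2 on hFc 1 to 4. The arrays of each group lay close together, and Vegfa rose 1.86-fold (log2 difference 0.9, standard error 0.16, adjusted p = 0.00457). Its probe and both others lay in the band of rows, so that leaving out the band left no value. The others gave 1.07, which did not pass, and 1.18. The difference was 0.93 with VEGF Trap 3 alone and 0.96 without the 3 arrays high in lens genes, which leaves VEGF Trap 1 alone. Each of these values rests on 1 VEGF Trap array. Of the 10 VEGF ligands and receptors Vegfa was the single gene to pass the test, where 7.83% of all genes passed. Vegfb had 0.07, 0.22 and 0.08 after VEGF Trap and −0.02 to −0.18 after hFc, groups that did not overlap but differed by only 0.23 (adjusted p = 0.224). Vegfc differed by −0.11 and Pgf, the placental growth factor, by −0.19 with 2 hFc arrays. Vegfd differed by 0.44, of which VEGF Trap 2 at 1.62 held most while the other 2 arrays stood at −0.55 and −0.09. The receptors overlapped between groups: Kdr stood at −0.03, −0.29 and −0.16 after VEGF Trap and at −0.06, 0.17, 0.02 and −0.06 after hFc (difference −0.18, standard error 0.15, adjusted p = 0.458), and its other probes gave −0.4 and −0.34. For Flt1 only hFc 1 was measured on the probe used (difference −0.05), and the 3 probes measured on all 4 hFc arrays gave −0.34, 0 and −0.14, none of which passed. The lymphatic receptor Flt4 differed by 0.13 and the co-receptors Nrp1 and Nrp2 by −0.4 and −0.21, with adjusted p of 0.559, 0.0866 and 0.161.

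Genes shared by all endothelial cells fell. Of 22 measured pan-endothelial genes 18 fell and 0 rose by limma, where 5.16% of all genes fell and 2.67% rose. At an unadjusted p under 0.05, 18 were lower and 0 higher. All 22 differences lay below 0, between −1.07 and −0.16, with a median of −0.57. On 19 of them the arrays of the groups did not overlap (15.7% of all genes). Among these, Emcn had 1 hFc array measured and Eng and Ptprb had 2 each, where such separation comes more easily. In RNA of whole retina, fewer endothelial cells and less RNA of a gene per endothelial cell cannot be told apart. Vwf, which endothelial cells store and release for clotting, stood at −1.21, −1.14 and −1.04 after VEGF Trap and at −0.24, 0.21, −0.2 and −0.06 after hFc. No VEGF Trap array came near the hFc arrays, and Vwf was 2.08-fold lower (log2 difference −1.05, standard error 0.09, adjusted p = 2.51e-05), with −0.99 on its other probe. Myct1, a small endothelial protein, stood at −1.84, −1.55 and −1.6 against −0.58, −0.65, −0.61 and −0.55. The hFc arrays of Myct1 lay close together, and it was 2.1-fold lower (−1.07, 0.13, adjusted p = 0.000192), with −0.59 and −0.49 by its other probes. Mmrn2, a matrix protein on the outer face of endothelium, stood at −1.33, −1.34 and −1.45 against −0.58, −0.65, −0.69 and −0.57. Neither group spread widely, and Mmrn2 was 1.68-fold lower (−0.75, 0.08, adjusted p = 0.000112), and −1.06 by its other probe.

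The junction proteins Cldn5, Cdh5, Pecam1 and Esam fell by 0.62, 0.65, 0.59 and 0.46 on the log2 scale. The transcription factors Erg, Sox7 and Sox18, which set endothelial identity, fell by 0.55, 0.44 and 0.5. Icam2, an adhesion molecule, fell by 0.88. Of these, Erg lost its call without VEGF Trap 1 (adjusted p = 0.0504) and Sox7 without VEGF Trap 1, VEGF Trap 2 or hFc 2 (0.0921, 0.0518 and 0.0565). Those that did not pass were Clec14a at −0.16, Ptprb at −0.29, Egfl7 at −0.16 and Kdr at −0.18. Kdr, the main VEGF receptor of endothelium, was thus among the 4 genes of this list with no call. With VEGF Trap 1 left out 11 of 22 passed, with a median of −0.58. With VEGF Trap 3 alone the median was −0.59. Without the 3 arrays high in lens genes, which leaves VEGF Trap 1 alone, it was −0.54. Leaving out the band of rows, 15 of 17 passed.

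The Tie receptors went the same way as the endothelial list they belong to. Tie1 stood at −0.89, −0.67 and −1.06 after VEGF Trap and at −0.08, 0.02, −0.17 and −0.06 after hFc. The groups were well separated, and Tie1 was 1.74-fold lower (−0.8, 0.09, adjusted p = 0.0001). Tek, the receptor of the angiopoietins, stood at −0.39, −0.4 and −0.48 against −0.13, −0.02, 0.14 and 0.06. Its arrays did not overlap either, and it was 1.35-fold lower (−0.44, 0.1, adjusted p = 0.014), a call lost without VEGF Trap 1 (adjusted p = 0.0586). Other Tek probes gave −0.51 and −0.11, of which the latter did not pass. Of the ligands, Angpt1 differed by −0.06 and Angpt4 by 0.03. Angpt2, the ligand of sprouting endothelium, had 1 hFc array measured on the probe used (difference −0.18, adjusted p = 0.487), and its probe with all 4 hFc arrays gave −0.04. The Tie1 promoter is shown because endothelial genes are read by ETS factors such as Erg, whose binding letters AGGAAG, on either strand, are in capitals.
Tie1, chr4:118489850-118490099 (- strand): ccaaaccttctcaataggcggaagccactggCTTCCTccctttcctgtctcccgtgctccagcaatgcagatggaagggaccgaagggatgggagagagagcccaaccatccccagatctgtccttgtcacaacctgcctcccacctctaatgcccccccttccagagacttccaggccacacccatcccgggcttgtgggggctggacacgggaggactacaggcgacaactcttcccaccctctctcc
Of the leading called genes of this list with a promoter, Tie1 held 1 match, Eng held 2, and Myct1 and Cldn5 held 0. Of 22 pan-endothelial genes tested only 12 had a promoter in the table, and 6 of these held AGGAAG on either strand, against 29.2% of all promoters.

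**Figure D2:**
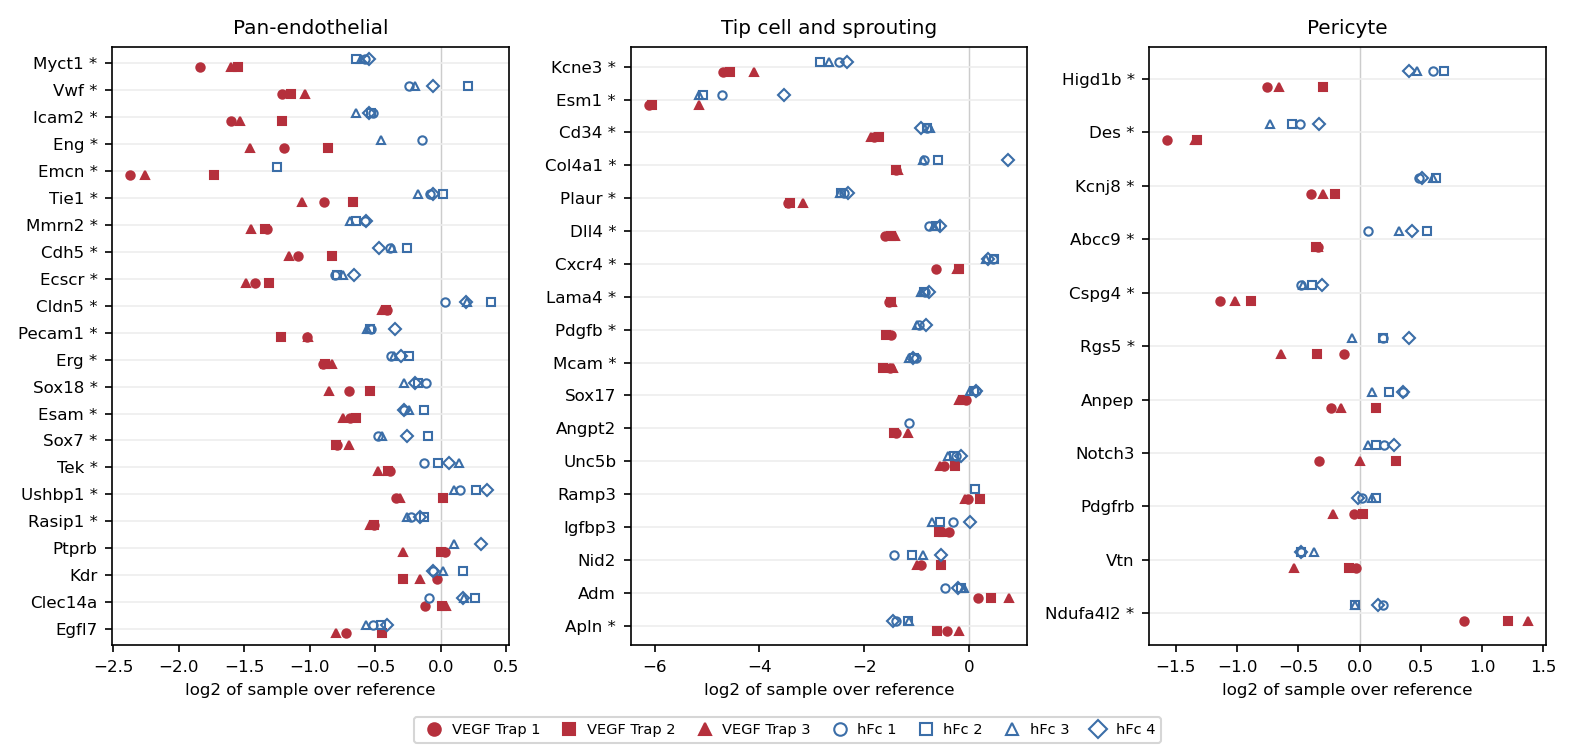
The log2 ratio of sample over reference for the measured pan-endothelial (22), tip cell and sprouting (18) and pericyte (11) genes, ordered by difference, with filled red symbols for VEGF Trap arrays, open blue symbols for hFc arrays and a star for genes past an adjusted p of 0.05. Most red symbols lie left of the blue ones, Apln and Ndufa4l2 lie to the right, and on Col4a1 hFc 4 stands apart at 0.74.

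Tip cell and sprouting genes held the largest of the 12 leading falls. Of 18 measured genes 10 fell and 1 rose (5.16 and 2.67% of all genes), with a median difference of −0.54. The falling genes included secreted, surface and matrix proteins of the vascular front. Kcne3, a potassium channel subunit of tip cells, stood at −4.7, −4.56 and −4.11 after VEGF Trap and at −2.48, −2.85, −2.67 and −2.33 after hFc. The groups were far apart, and Kcne3 was 3.68-fold lower (−1.88, 0.17, adjusted p = 2.78e-05), with −1.52 and −1.6 from its remaining probes. Cd34, a sialomucin on the filopodia of tip cells, stood at −1.81, −1.72 and −1.88 against −0.8, −0.81, −0.74 and −0.91. Cd34 was 1.99-fold lower without overlap (−0.99, 0.1, adjusted p = 8.98e-05). Plaur, the urokinase receptor, stood at −3.45, −3.41 and −3.17 against −2.38, −2.45, −2.46 and −2.31. Its hFc arrays lay within a narrow range, and it was 1.93-fold lower (−0.95, 0.13, adjusted p = 0.000964). Its other probes gave −0.92, −0.44 and −0.7, of which −0.44 did not pass.

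Esm1, a proteoglycan secreted by tip cells, stood at −6.11, −6.04 and −5.16 after VEGF Trap and at −4.72, −5.08, −5.16 and −3.53 after hFc. VEGF Trap 3 and hFc 3 both rounded to −5.16, so the separation of the groups was slight, and the fall of 1.15 on the log2 scale (standard error 0.31, adjusted p = 0.0353) was lost without VEGF Trap 1, VEGF Trap 2 or hFc 1, where the adjusted p was 0.179, 0.104 and 0.0549. Its other probes gave −0.95, −0.47 and −0.33, none of which passed. The laminin chain Lama4 stood at −1.52, −1.49 and −1.48 against −0.84, −0.86, −0.91 and −0.77. Lama4 was 1.57-fold lower (−0.65, 0.08, adjusted p = 0.000374), while its other probes gave −0.42, −0.57 and −0.06, the last not past the test. The adhesion molecule Mcam, the pericyte-recruiting ligand Pdgfb and the chemokine receptor Cxcr4 fell by 0.46, 0.62 and 0.76. The call of Cxcr4 was lost when any 1 of the 7 arrays was left out (adjusted p of 0.0535 to 0.202), and that of Pdgfb without VEGF Trap 1 or 2 (0.0872 and 0.0773). Adm, which is also a hypoxia gene, did not pass. Sox17, Angpt2, Unc5b, Nid2, Ramp3 and Igfbp3 had differences between −0.22 and 0.16 and did not pass either. Without VEGF Trap 1 and without VEGF Trap 2 the list held 6 falls each time, with Apln rising in each.

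Apln, the apelin peptide of tip cells, was the single rise of this list. It stood at −0.42, −0.61 and −0.19 after VEGF Trap and at −1.39, −1.17, −1.14 and −1.45 after hFc. The groups did not overlap, and Apln rose 1.84-fold (0.88, 0.12, adjusted p = 0.000964). Its remaining probes gave 0.23, 0.31, 0.94 and 0.97, of which 0.23 and 0.31 did not pass. Against VEGF-A on the same slides Apln lay lower, by −1.8 on the log2 scale (standard error 0.09, adjusted p = 2.6e-06), and the 5 VEGF-A arrays averaged 1.44 (SD 0.12). VEGF Trap arrays thus lay between hFc and VEGF-A for Apln.

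Genes known to follow VEGF in endothelium split. Of 19 measured members 3 fell and 2 rose (5.16 and 2.67% of all genes), with a median of −0.14. Prnd, the doppel protein of developing vessels, stood at −1.79, −1.77 and −1.33 after VEGF Trap and at −0.24, −0.18, −0.52 and −0.28 after hFc. Prnd was 2.5-fold lower with the groups far apart (−1.32, 0.13, adjusted p = 4.79e-05). Plat, the tissue plasminogen activator, fell by 0.36, with 0.13 and −0.05 from its remaining probes, and Kcne3 was the other fall. Stc1, a secreted glycoprotein that also responds to low oxygen, rose 1.62-fold (0.69, 0.16, adjusted p = 0.0146). Its other probe gave 0.37 and did not pass. F3, tissue factor, rose by 0.49. Plat lost its call without VEGF Trap 1 (adjusted p = 0.0597), Stc1 without VEGF Trap 1 or 3 (0.0788 and 0.0571) and F3 without VEGF Trap 1, VEGF Trap 2, hFc 1 or hFc 2 (0.0585 to 0.125). Of 17 immediate early genes 0 passed by limma, with 2 higher and 3 lower at an unadjusted p under 0.05 and a median of −0.03. Of 10 genes of ERK feedback only Etv5 fell, by 0.26 (adjusted p = 0.0415), which no longer passed without any 1 array but hFc 1 (0.0613 to 0.121).

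Among Notch genes the endothelial ligand and the endothelial receptor fell. Dll4, the Notch ligand of tip cells and arteries, stood at −1.6, −1.49 and −1.41 after VEGF Trap and at −0.76, −0.63, −0.68 and −0.55 after hFc. Both groups were tight, and Dll4 was 1.8-fold lower (−0.85, 0.07, adjusted p = 2.51e-05). Its remaining probes gave −0.57 and −0.09, the second in the band of rows and not past the test. Notch4, the endothelial Notch receptor, stood at −1.08, −0.95 and −1.19 against −0.37, −0.26, −0.41 and −0.3. It was 1.67-fold lower without overlap (−0.74, 0.09, adjusted p = 0.000311), but another Notch4 probe, in the band of rows, gave −0.17 and did not pass. Notch1 stood at −0.38, −0.27 and −0.47 against 0.07, −0.22, −0.2 and −0.1 and did not pass (−0.26, adjusted p = 0.363). Of 10 Notch target genes 2 fell, where 5.16% of all genes did. These were the fringe enzyme Lfng, by 0.76 (adjusted p = 0.0175), and Hes5, a repressor of neuronal fate in retinal progenitors and glia, by 0.55 (adjusted p = 0.0256). The other probes of Lfng and Hes5 gave −0.48, which did not pass, and −0.93. Lfng lost its call without VEGF Trap 1 or 3 (0.08 and 0.0648) and Hes5 without VEGF Trap 1, VEGF Trap 2, hFc 1 or hFc 4 (0.0508 to 0.136). Hes1 and Hey1 had differences of −0.08 and 0.04, and their arrays overlapped between the groups. Of 11 arterial genes 2 fell (5.16% of all genes). Gja4, a connexin, fell by 0.51 and the semaphorin Sema3g by 0.45, the latter lost without VEGF Trap 1, VEGF Trap 3 or hFc 2 (0.0672 to 0.124). Of 4 venous genes 0 passed by limma, with 1 lower at an unadjusted p under 0.05.

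Pericytes sit on the capillary wall, and their genes fell in part. Of 11 measured genes 6 fell and 1 rose (5.16 and 2.67% of all genes), with a median of −0.55. Higd1b stood at −0.76, −0.3 and −0.66 after VEGF Trap and at 0.6, 0.69, 0.47 and 0.4 after hFc. It was 2.17-fold lower (−1.12, 0.15, adjusted p = 0.000738). The intermediate filament Des stood at −1.57, −1.33 and −1.34 against −0.49, −0.55, −0.73 and −0.33. Des was 1.85-fold lower with the groups apart (−0.89, 0.14, adjusted p = 0.00239). Kcnj8 and Abcc9 form the potassium channel of pericytes. Abcc9 fell by 0.69, with −0.24 to −0.39 from its remaining probes, none of which passed, and Kcnj8 fell by 0.86. The proteoglycan Cspg4 and the signalling regulator Rgs5 fell by 0.61 and 0.55. Kcnj8 and Cspg4 lost their calls without VEGF Trap 1 (adjusted p of 0.055 and 0.0577), and Rgs5 without any 1 array but hFc 3 (0.065 to 0.148). The receptor Pdgfrb had a difference of −0.14 and did not pass. Ndufa4l2, a pericyte gene that HIF switches on, rose: it stood at 0.85, 1.21 and 1.37 against 0.19, −0.04, −0.04 and 0.15. Ndufa4l2 was 2.12-fold higher without overlap (1.08, 0.12, adjusted p = 0.000112). Smooth muscle genes had 1 fall of 10 (5.16% of all genes), Smtn by 0.28, and a median of 0.02. That fall was lost without VEGF Trap 1, VEGF Trap 3 or hFc 2 (0.0501 to 0.132). Without VEGF Trap 1 the pericyte list held 3 falls.

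The blood-retina barrier list held 3 falls and 1 rise among 14 genes, where 5.16% of all genes fell and 2.67% rose. Mfsd2a, the lipid transporter that suppresses transcytosis in barrier endothelium, stood at −0.72, −0.52 and −0.91 after VEGF Trap and at 0.58, 0.53, 0.45 and 0.59 after hFc. The groups were far apart, and Mfsd2a was 2.38-fold lower (−1.25, 0.16, adjusted p = 0.000374). Cldn5, the tight junction claudin, stood at −0.41, −0.42 and −0.45 against 0.03, 0.38, 0.2 and 0.19. It was 1.54-fold lower (−0.62, 0.08, adjusted p = 0.000549). Foxq1, a transcription factor of brain endothelium, fell by 0.44 with 2 hFc arrays measured, a call lost without VEGF Trap 1, VEGF Trap 3, hFc 1 or hFc 3 (adjusted p of 0.0713 to 0.147). The rise was Slc2a1, which stood at 0.4, 0.34 and 0.19 against −0.48, −0.06, −0.43 and −0.27 (0.62, 0.17, adjusted p = 0.0365), a call that 6 of the 7 single arrays ended when left out, with adjusted p of 0.0546 to 0.158.

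Of 14 basement membrane and matrix genes 3 fell (5.16% of all genes), Lama4, Nid1 and Col4a1, with a median of −0.16 over the list. Other basement membrane chains did not pass, with Col4a2 at −0.49, Lamb1 and Lamc1 both at −0.16, Nid2 at 0.16, Lama5 at 0.29 and Col18a1 at 0.6. Nid1, the nidogen that links laminin to collagen, stood at −1.6, −1.5 and −1.54 after VEGF Trap and at −0.95, −0.64, −0.84 and 0.97 after hFc. The VEGF Trap arrays lay close together, while hFc 4 stood far above the rest. Col4a1 had the same shape, with −1.4, −1.39 and −1.36 against −0.87, −0.59, −0.88 and 0.74. Nid1 fell by 1.18 (standard error 0.31, adjusted p = 0.0309) and Col4a1 by 0.98 (0.27, adjusted p = 0.037). hFc 4 was also the hFc array with high lens genes, and without it the differences were −0.74 for Nid1 (adjusted p = 0.00163) and −0.6 for Col4a1 (adjusted p = 0.00471). Without all 3 arrays high in lens genes, which leaves VEGF Trap 1 alone in its group, they were −0.79 and −0.61. Leaving out any 1 VEGF Trap array ended both calls, with adjusted p of 0.0611 to 0.126 for Nid1 and 0.0761 to 0.136 for Col4a1, and for Col4a1 so did leaving out hFc 2 (0.0614). In the proteolysis list Plaur and Plat fell and Timp3, a protease inhibitor bound to matrix, rose by 0.67 (adjusted p = 0.0189), a call lost without VEGF Trap 1 or 2 (0.113 and 0.0575). In the TGF-β and BMP list the endothelial receptors Eng and Acvrl1 fell by 0.87 and 0.38 and Tgfbr1 by 0.3. Acvrl1 lost its call without VEGF Trap 1 (0.103), and Tgfbr1 without any 1 array but VEGF Trap 2 or hFc 1 (0.0509 to 0.187), and the other Tgfbr1 probe gave 0.1. Tgfb1 fell by 1.09 with a single hFc array measured, and its probes with all 4 gave −0.89 and −0.38. Eng had 2 hFc arrays. The nitric oxide synthase Nos2 fell by 0.57 (adjusted p = 0.000433), as did Ramp2, the adrenomedullin receptor partner, by 0.65 with 1 hFc array measured, which was lost without VEGF Trap 1 (0.0683).

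Part of the cell cycle list fell. Of 21 measured genes 9 fell and 0 rose by limma (5.16 and 2.67% of all genes). At an unadjusted p under 0.05, 14 were lower and 0 higher, and the median was −0.34. Cdc20, which drives the exit from mitosis, stood at −1.51, −1.17 and −1.1 after VEGF Trap and at −0.69, −0.63, −0.64 and −0.41 after hFc. Cdc20 was 1.59-fold lower without overlap (−0.67, 0.1, adjusted p = 0.00154). The replication helicase genes Mcm5 and Mcm6 fell by 0.57 and 0.37 and the spindle checkpoint kinase Bub1 by 0.63, and all 3 calls were lost without VEGF Trap 1 (0.0901, 0.107 and 0.0852). This count rested on single arrays: without VEGF Trap 1 it was 1 of 21 and without hFc 3 it was 5, with medians of −0.26 and −0.39. With VEGF Trap 3 alone the median was −0.22.

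**Figure D3:**
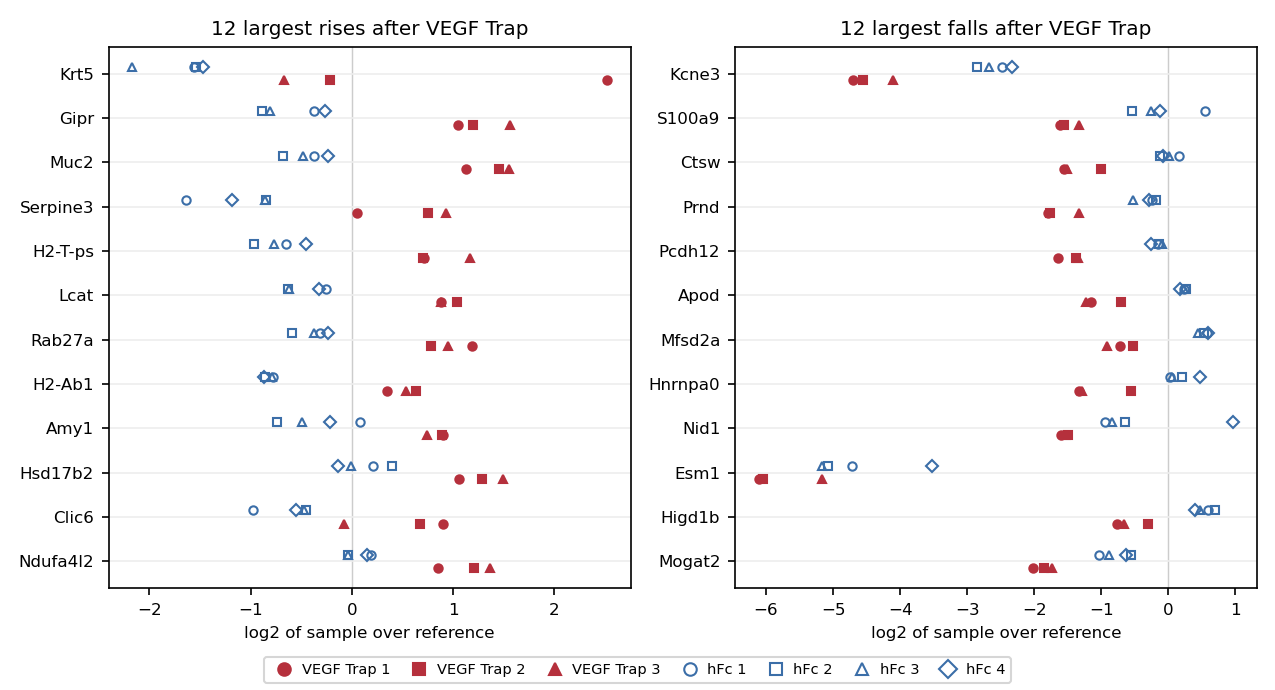
The log2 ratio of sample over reference for the 12 largest rises (left) and 12 largest falls (right) after VEGF Trap, with filled red symbols for the 3 VEGF Trap arrays and open blue symbols for the 4 hFc arrays. The 24 genes were chosen among called genes whose groups do not overlap. Krt5 is drawn out by VEGF Trap 1 at 2.52, and Nid1 by hFc 4 at 0.97.

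The 12 largest rises were mostly not vascular genes, and the probe of 6 of them lay in the band of rows, against 2 of the 12 largest falls. Lcat, the enzyme that esterifies cholesterol on lipoproteins, stood at 0.88, 1.04 and 0.88 after VEGF Trap and at −0.26, −0.63, −0.62 and −0.32 after hFc. Its groups were far apart, and Lcat rose 2.63-fold (1.39, 0.1, adjusted p = 6.93e-06), with 1.17 on its other probe. Gipr, the receptor of an incretin hormone, stood at 1.05, 1.2 and 1.56 against −0.37, −0.89, −0.81 and −0.27. Gipr rose 3.63-fold (1.86, 0.18, adjusted p = 4.79e-05), with 0.57 on a probe outside the band and 1.01 on another inside it. Hsd17b2, which inactivates sex steroids, stood at 1.06, 1.29 and 1.49 against 0.21, 0.4, −0.01 and −0.14. Hsd17b2 rose 2.24-fold without overlap (1.17, 0.18, adjusted p = 0.00191).

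Other rises were less even between probes or arrays. The mucin Muc2 stood at 1.13, 1.45 and 1.55 after VEGF Trap and at −0.37, −0.68, −0.48 and −0.24 after hFc (1.82, 0.16, adjusted p = 2.51e-05), but its other probe gave 0.07. Rab27a, a GTPase of vesicle secretion, rose by 1.35 on the probe used and had 0.19 and 0.22 on its others. Krt5, a keratin of stratified epithelium, stood at 2.52, −0.22 and −0.67 against −1.56, −1.54, −2.17 and −1.47. Krt5 thus lay highest on VEGF Trap 1, and its rise of 2.23 (standard error 0.63, adjusted p = 0.0415) was lost when VEGF Trap 1 or any 1 hFc array was left out (adjusted p of 0.0603 to 0.224). Without VEGF Trap 1 the difference was 1.24. Of genes with probes in the band, Serpine3 rose by 1.71, H2-T-ps, a pseudogene of the major histocompatibility complex, by 1.57, H2-Ab1, a class II antigen-presenting chain, by 1.33, Amy1, an amylase, by 1.18 and the channel protein Clic6 by 1.1. Amy1 lost its call without any 1 array but hFc 1 or hFc 4 (0.0592 to 0.126), and Clic6 without VEGF Trap 1, VEGF Trap 2 or hFc 1 (0.0585 to 0.151). The other probes of H2-Ab1 gave 0.3, 0.54 and 0.89, of which 0.3 and 0.54 did not pass. H2-T-ps and Amy1 belong to families of near-identical copies, so their probes may read relatives.

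Among the largest falls outside the lists was Pcdh12, a protocadherin of endothelial junctions, which stood at −1.65, −1.37 and −1.35 after VEGF Trap and at −0.16, −0.14, −0.1 and −0.25 after hFc. It was 2.45-fold lower (−1.29, 0.11, adjusted p = 1.95e-05), but its other probes gave −0.28 and −0.34 and did not pass. Ctsw, a cathepsin known from cytotoxic lymphocytes, stood at −1.56, −1 and −1.51 against 0.16, −0.12, 0.01 and −0.08. It was 2.55-fold lower without overlap (−1.35, 0.16, adjusted p = 0.000234). Apod, an apolipoprotein, stood at −1.15, −0.71 and −1.22 against 0.24, 0.26, 0.24 and 0.18. Its hFc arrays lay close together, and Apod was 2.39-fold lower (−1.26, 0.22, adjusted p = 0.00379). Mogat2, a lipid synthesis enzyme, fell by 1.1 and the RNA-binding protein Hnrnpa0 by 1.25, with −0.67 by its other probe. S100a9, a calcium-binding protein of neutrophils, fell by 1.41 (standard error 0.38, adjusted p = 0.0339), and its hFc arrays ranged from −0.54 to 0.55. Its other probes gave −1.43 and −0.5, the latter not past the test. The call of S100a9 was lost when any 1 array other than hFc 2 was left out (adjusted p of 0.055 to 0.141).

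Lists of retinal neurons and glia held 0 to 2 calls each, where 7.83% of all genes tested were called. Of 12 rod genes 1 rose (Prph2, by 0.6, adjusted p = 0.0493), of 9 cone genes 2 fell (Gngt2 by 0.49 and Pde6h by 0.46), of 10 bipolar genes 1 fell (Pcp2, by 0.38) and of 15 amacrine and horizontal cell genes 1 rose (Slc6a9, by 0.37). The medians of these lists lay between −0.03 and 0.1. The other probes of Gngt2 and Pde6h both gave −0.26 and did not pass. These 5 calls were lost without VEGF Trap 1 (adjusted p of 0.112 to 0.199), and all but that of Slc6a9 without several other arrays in turn. Of 13 retinal ganglion cell genes and 13 Müller glia genes 0 passed by limma, with medians of −0.03 and 0.02, and at an unadjusted p under 0.05 there were 0 for ganglion cells and 3 higher and 1 lower for Müller glia. Astrocytes, on which the vessels grow, had 1 rise of 6, the glycolytic aldolase Aldoc by 0.5 (adjusted p = 0.00806, or 0.0529 without VEGF Trap 1), with 0.23 and 0.44 by its other probes. Of 18 genes of reactive gliosis C4b rose by 0.77 (lost without VEGF Trap 2, adjusted p = 0.0589) and Nes, nestin, fell by 0.54, with a median of 0.11. Gfap, the standard marker of reactive glia, differed by −0.18 (adjusted p = 0.487).

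The immune and blood lists below held 0 to 2 calls each, where 7.83% of all genes tested were called. Of 17 microglia and macrophage genes, 19 interferon genes and 13 genes of inflammation and adhesion 0 passed by limma, with medians of −0.01, 0.19 and 0.01. At an unadjusted p under 0.05 these lists held 3 higher and 1 lower, 3 higher, and 2 higher. Of 13 complement genes C3 and C4b rose, C3 by 0.71 with 2 hFc arrays measured, but the C3 probe with all 4 hFc arrays gave −0.01, and without hFc 2 the adjusted p was 0.0616. Of 9 neutrophil genes only S100a9 fell. Of 7 erythroid genes Alas2, which starts haem synthesis, fell by 0.91 (adjusted p = 0.0414, lost without any 1 array but hFc 1, 0.0527 to 0.14) and the median was −0.36. In lipid metabolism the sterol response gene Insig1, which holds back sterol synthesis, rose by 0.7, though its other probes gave −0.34 and −0.36 and its call was lost without VEGF Trap 1 (0.0812). Igfbp5, which binds insulin-like growth factors, rose by 0.82 (adjusted p = 0.00297) as 1 of 10 genes of that axis.

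The comparison with VEGF-A asks where VEGF Trap arrays differ from retinas with added VEGF on the same slides. Of 23353 genes 3927 passed (16.8%), 1709 higher after VEGF Trap (7.32%) and 2218 lower (9.5%). The higher genes numbered 997, 951 and 1133 without VEGF-A 1, VEGF-A 2 or VEGF Trap 1, and without VEGF-A 2 the count of all calls was 2580. Both comparisons use the same 3 VEGF Trap arrays, so their values are set side by side and do not support each other. The lowest correlation of a VEGF Trap array with a VEGF-A array across genes was −0.332, and the direction was kept because the labels give the dyes and the treatments could oppose each other. Of 27 hypoxia genes 25 were higher than after VEGF-A and 0 lower, with a median difference of 0.99. Of 24 pan-endothelial genes 20 were lower, with a median of −1.54, and of 18 tip cell genes 14 were lower, with a median of −2.55. Other lists were split: of 11 pericyte genes 3 were higher and 3 lower, with a median of 0.13. Of 14 blood-retina barrier genes 5 were higher and 2 lower, with a median of 0.14. Esm1 lay far below VEGF-A (log2 difference −7.71, standard error 0.18, adjusted p = 5.88e-08), Kcne3 at −6.17 and Plaur at −5.14. Of 21 cell cycle genes 19 were lower and 0 higher.

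**Figure D4:**
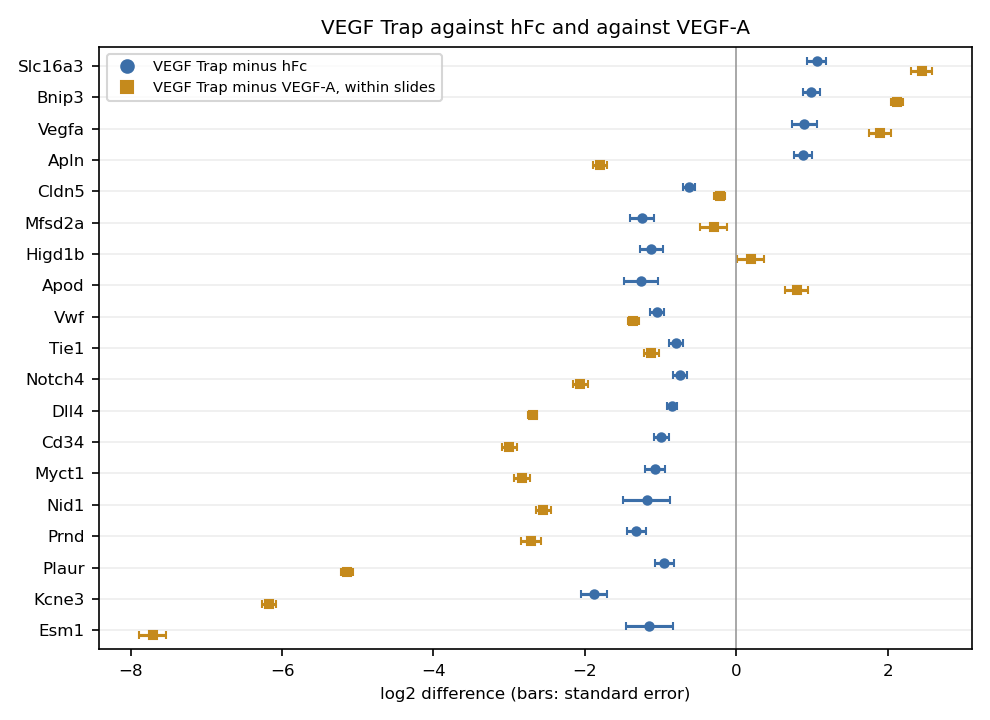
The log2 difference of VEGF Trap from hFc (blue circles) and from VEGF-A within slides (orange squares), with bars of 1 standard error, for 19 genes chosen after their values were seen. Esm1 spans −1.15 to −7.71, Slc16a3 lies right of 0 in both, and Apln and Apod have opposite signs in the 2 comparisons. Higd1b lies left of 0 against hFc and near 0 against VEGF-A (0.19, standard error 0.18).

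Some genes that fell against hFc were not called lower than after VEGF-A, and how many did so was not counted. Mfsd2a averaged −0.71 (SD 0.2) after VEGF Trap, 0.54 (SD 0.07) after hFc and −0.46 (SD 0.33) after VEGF-A, and VEGF Trap differed from VEGF-A by −0.3 (standard error 0.18, adjusted p = 0.321). Higd1b averaged −0.58 (SD 0.24), 0.54 (SD 0.13) and −0.77 (SD 0.29) in the same order, and differed from VEGF-A by 0.19 (standard error 0.18, adjusted p = 0.556). By these means both genes stood lower in each of the VEGF groups than after hFc, though VEGF-A was not tested against hFc here. No hFc array shared a slide with either VEGF group. Slide and treatment therefore cannot be told apart in these means. Apod averaged −1.82 (SD 0.18) after VEGF-A and was higher after VEGF Trap by 0.8 (adjusted p = 0.00722). Cldn5 differed from VEGF-A by −0.22 (adjusted p = 0.0672). Kcnj8, which fell against hFc, was higher than after VEGF-A by 1.37 (adjusted p = 0.0023). Abcc9 differed from VEGF-A by 0.13, Rgs5 by −0.3 and Cxcr4 by −0.18 (adjusted p of 0.537, 0.194 and 0.683). The treatments of VEGF-A and VEGF Trap may differ in dose and age, since neither is known for VEGF Trap.

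**Figure D5:**
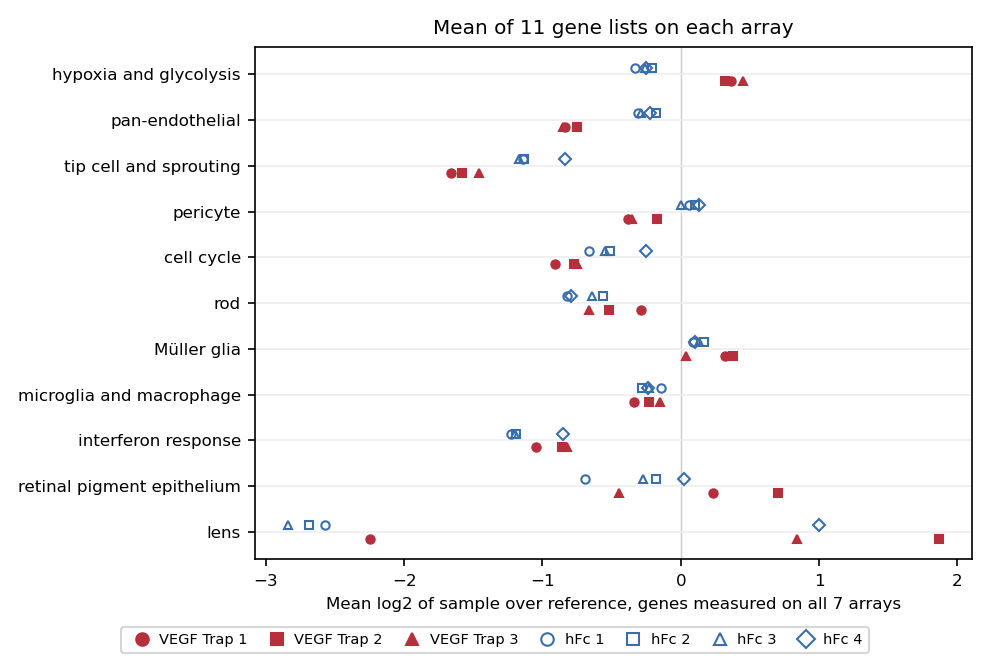
The mean log2 ratio of 11 gene lists on each array, over genes measured on all 7 arrays, with filled red symbols for VEGF Trap and open blue symbols for hFc. Hypoxia, pan-endothelial, tip cell, pericyte and cell cycle means are separated by group, while lens means run from −2.84 to 1.87 and mix the groups. Over all 40 lists, every VEGF Trap mean lay above every hFc mean in 2 lists and below in 11.

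Of the 40 gene lists, the lens genes varied most between arrays. Of 12 measured, 0 passed by limma (1 higher at an unadjusted p under 0.05), all 12 differences were above 0 and the median was 2.13. The mean of the list was −2.25, 1.87 and 0.84 on VEGF Trap 1 to 3 and −2.57, −2.69, −2.84 and 1 on hFc 1 to 4. High lens arrays were therefore found in both groups, and VEGF Trap 1 lay with 3 of the hFc arrays. The list of retinal pigment epithelium, the other neighbouring tissue, had means of −0.45 to 0.7 after VEGF Trap and −0.69 to 0.02 after hFc, and 0 of 10 genes passed by limma, with 1 higher at an unadjusted p under 0.05. VEGF Trap 1, low in lens genes, had a pan-endothelial mean of −0.84, beside −0.75 and −0.85 on VEGF Trap 2 and 3, and a tip cell mean of −1.66, beside −1.58 and −1.46. The part of lens RNA in the differences between the groups was otherwise not tested.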

How the data were processed

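Per the file headers, the authors' scanner software gave intensity values of both channels for each spot as mean signals with local background medians, and the submitters' processing notes name Agilent Feature Extraction 9.5.1.1. The deposited log10 LogRatio column (Cy5 over Cy3), the authors' deposited series matrix of natural log ratios and the Cy3 intensity alone served as alternatives. A genome build for the probes was not given in the sources used.

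Background was corrected by normexp (offset 50) and loess normalised within each array with control spots at weight 0, and the sign was turned to log2 of sample over reference. Dyes were not swapped, so dye bias is shared by all arrays. Spots the deposited outlier flags mark were left out. Of 43426 probes, 39788 were kept for a Cy3 signal well above background on at least 3 of 16 arrays, and each gene took its brightest probe. Probes were named through a RefSeq table by accession (26263), symbol (6850) or older symbol (3158), and 7155 kept the name in the file. Of 23353 genes, 541 had no hFc value.

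limma 3.58.1 in R 4.3.3 fitted 4 groups on 16 arrays, 2-sided, with Benjamini-Hochberg adjustment over all genes at 0.05, and 12 residual and 3.77 prior degrees of freedom. The median standard error was 0.099, and the number of arrays limits the precision. VEGF Trap against VEGF-A was fitted on 8 arrays with slide as a block. Where a group had 1 array for a gene, its spread was taken from the other groups. The method was tested on simulated data.

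Genes named with full values were the 12 largest rises and falls among called genes with a symbol, at least 3 arrays measured in each group, Cy3 well above background on all arrays of either group and no overlap. To these came the VEGF, angiopoietin and Tie genes, up to 4 called genes with the smallest p of each of 40 lists, and Agt, Adm, Apln, Angpt2, Esm1, Dll4, Vegfa, Kdr, Flt1, Hes1, Hey1, Notch1 and Notch4. Agt had no hFc value, and 1 gene that the rule names is not reported here. The members and lists were chosen with earlier results of these data known. Alternatives changed the background correction, normalisation, probe filter, probe choice, outlier spots, band of rows, slides and arrays. Figures were drawn with matplotlib 3.10.9 in Python 3.11.15.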

Additional observations from a re-analysis of the deposited data

Results flagged for a closer look

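Of the 135 named genes and gene lists, 8 had an hFc array that stood apart. Its distance from the nearest other hFc array was large beside the range of the 4. The check used the hFc arrays only, needed values on all 4, and did not look at the 3 VEGF Trap arrays. Chance alone gives such a value in about 1 of 20 groups. Krt5, a keratin, stood at −2.17 on hFc 3 while the others lay between −1.56 and −1.47. Nid1, a basement membrane gene, stood at 0.97 on hFc 4 against −0.95 to −0.64 on the others.

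The other 6 were list means on hFc 4. The mean of lens genes was 1 on hFc 4 against −2.84 to −2.57 on hFc 1 to 3. Tip cell and sprouting genes had a mean of −0.84 on hFc 4 against −1.17 to −1.13, and VEGF-responsive endothelial genes −0.36 against −0.51 to −0.5. Notch receptors and ligands had a mean of −0.13 against −0.26 to −0.25. Interferon response genes had a mean of −0.85 against −1.23 to −1.19, and complement genes −0.27 against −0.53 to −0.5. All 6 means were higher on hFc 4 than on the other hFc arrays.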

How the results depend on the processing

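Against hFc, 1786 genes were called. The count was 850 with the LogRatio column (295 rises, 555 falls), 467 with the Cy3 channel alone (140, 327), 1117 with the deposited series matrix (440, 677) and 161 with the VEGF Trap array of slide 4 alone (41, 120), of which 678, 405, 785 and 147 were among the 1786. Chosen after seeing the data, leaving out the 3 arrays high in lens genes gave 516 (116, 400). Rises numbered 366 after leaving out the band of rows and 1094 with only the 7 arrays fitted, where falls numbered 1230. Leaving out 1 array at a time gave 350 to 1542 calls, 130 to 541 rises and 220 to 1119 falls. With hFc 1 and hFc 2, whose titles share part of a code, averaged, 1206 genes were called. Slide as a random block gave 1743. Against VEGF-A, leaving out 1 array gave 2580 to 4543 calls, 951 to 2184 rises and 1502 to 2419 falls. Of 78 called named genes, 30 kept their call under every alternative that gave them a value and 48 lost it under at least 1. C3 alone changed sign, to −0.01 with the brightest probe measured on all 7 arrays, also chosen after seeing the data; that alternative reads another probe. The causes of the other shifts were not tested. No paired analysis against hFc was possible because the replicate numbers here only follow the order of the arrays and the labels give none that link VEGF Trap to hFc samples. The titles of VEGF Trap 3 and VEGF-A 4 also share part of a code, whose meaning the labels do not give. The comparison with VEGF-A did not pair those arrays. The signal over background limits what can be read from dim probes, since 84.9 to 85.1% of spots on the hFc arrays were well above background.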
